A study of Mus musculus with 7 samples.

Results

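Binding of retinoid X receptor α (RXRα) in mouse liver was compared between a diet with retinoic acid (RA) and a control diet. The members were all RXRα peaks of both diets, taken by the receptor and diet in the labels: 61128 peaks under the control diet and 59624 under RA, or 120752 of the 245004 peaks in the 6 peak lists of the series. An overlap of at least 1 bp with the opposite diet's list made a peak shared, an RA peak without such an overlap was gained, and a control peak without one was lost. The livers came from male wild-type C57BL/6 mice aged 3 months, fed normal chow (control) or chow with RA for 1 day according to the labels. The study's methods describe a longer RA feeding, so the duration is not settled. Chromatin immunoprecipitation followed by sequencing (ChIP-seq) gave 1 RXRα library per diet, and the labels do not say how many animals went into a library. The other 4 lists hold retinoic acid receptor α (RARα) and retinoic acid receptor β (RARβ) peaks under each diet, and served as readouts that the classes did not use. With 1 library per diet, no difference below could be tested, and the diet and the library cannot be told apart. Intervals are Wilson 95% intervals and cover counting error only.

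RXRα is a nuclear receptor that binds DNA mostly as a heterodimer, and its partners include the RARs and the peroxisome proliferator-activated receptors (PPARs). Other partners are the oxysterol-sensing liver X receptor (LXR), the bile acid-sensing farnesoid X receptor (FXR), and 2 sensors of foreign compounds, PXR and CAR. Each receptor of the dimer contacts a half-site close to AGGTCA, and the spacing of 2 half-sites in the same orientation differs between partners: PPAR/RXR dimers are known for a spacer of 1 base (DR1). In liver these dimers act on fatty acid oxidation, bile acid and cholesterol metabolism, drug metabolism and gluconeogenesis. RA itself is a ligand of the RARs.

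Promoter sequences under a few gained, lost and shared peaks are shown first. They are the bases directly before the outermost start of each gene on the gene's own strand (RefSeq, GRCm38.p6), and were chosen after their peaks were seen. Capitals mark half-sites on either strand, searched as AGGTCA and as its variants. One variant is AGTTCA, another is GGGTCA, and the last is GGTTCA. Ass1 (argininosuccinate synthase of the urea cycle, plus strand, chr2:31470020-31470269) and Bco1 (which cleaves β-carotene to retinal, plus strand, chr8:117095615-117095850) lay under gained peaks. Pck1 (phosphoenolpyruvate carboxykinase of gluconeogenesis, plus strand, chr2:173152823-173153072) and Elovl5 (a fatty acid elongase, plus strand, chr9:77917115-77917364) lay under lost peaks. Srp54a (a subunit of the signal recognition particle, plus strand, chr12:55080246-55080475) lay under a shared peak and is shown for its DR1.
Ass1: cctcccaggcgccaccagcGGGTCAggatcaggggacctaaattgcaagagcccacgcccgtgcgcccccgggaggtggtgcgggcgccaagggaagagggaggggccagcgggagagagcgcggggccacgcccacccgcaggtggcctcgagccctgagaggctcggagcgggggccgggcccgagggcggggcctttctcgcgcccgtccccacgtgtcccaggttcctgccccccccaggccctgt
Bco1: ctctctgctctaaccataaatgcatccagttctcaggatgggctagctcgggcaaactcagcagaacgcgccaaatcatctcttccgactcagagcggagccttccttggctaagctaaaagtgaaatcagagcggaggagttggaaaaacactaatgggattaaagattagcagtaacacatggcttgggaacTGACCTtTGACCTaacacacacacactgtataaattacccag
Pck1: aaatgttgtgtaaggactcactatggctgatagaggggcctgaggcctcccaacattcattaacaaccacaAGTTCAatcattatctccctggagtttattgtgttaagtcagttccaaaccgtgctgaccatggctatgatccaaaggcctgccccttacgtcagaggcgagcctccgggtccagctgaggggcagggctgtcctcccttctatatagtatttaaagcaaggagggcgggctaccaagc
Elovl5: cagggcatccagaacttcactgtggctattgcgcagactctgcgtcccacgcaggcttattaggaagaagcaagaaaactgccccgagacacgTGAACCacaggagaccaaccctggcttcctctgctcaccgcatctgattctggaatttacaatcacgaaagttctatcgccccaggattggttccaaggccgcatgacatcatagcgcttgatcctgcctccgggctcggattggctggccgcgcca
Srp54a: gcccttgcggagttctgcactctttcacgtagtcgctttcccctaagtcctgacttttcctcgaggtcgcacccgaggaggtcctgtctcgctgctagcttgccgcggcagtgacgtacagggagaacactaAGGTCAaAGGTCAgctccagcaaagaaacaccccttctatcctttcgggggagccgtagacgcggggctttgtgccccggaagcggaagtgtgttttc

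The gained Bco1 promoter held a DR1 that begins 42 bases before the start, and the shared Srp54a promoter held one that begins 98 bases before it. Ass1, Pck1 and Elovl5 each held 1 single half-site and no repeat with a spacer of 0 to 8 bases in these letters. Over all 32817 promoter windows of 300 bases in the RefSeq table (250 before a start and 50 after it), 0.222% held a DR1 on either strand. The share was 0.353% (0.250 to 0.499, 32 of 9054) for windows under a shared RXRα peak, 0.494% (0.227 to 1.07, 6 of 1215) under a gained peak and 0.161% (0.116 to 0.224, 35 of 21752) without an RXRα peak. Under a lost peak it was 0 of 788, with an upper limit of 0.485%. The intervals of the gained, lost and shared windows overlapped. The single half-site AGGTCA was in 10.4% of windows under a gained peak, 14.8% under a lost peak, 15.1% under a shared peak and 17.1% without a peak, and the GC content of these windows was 61.8%, 57.7%, 60.4% and 50.5%.

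Most RXRα sites were occupied under both diets. Of the control peaks, 48456 were shared (79.3%, 78.9 to 79.6) and 12672 were lost (20.7%). Of the peaks under RA, 48134 were shared (80.7%, 80.4 to 81.0) and 11490 were gained (19.3%). The unshared peaks were mostly weak. The score of a peak, the caller's −10 × log10 p with a minimum of 50, is not comparable between libraries and is used here as a percentile rank within its own list. The median score was 73.1 for lost and 178 for shared peaks of the control list, and 72.4 for gained and 182 for shared peaks of the RA list. Lost and gained peaks were also narrower, with median widths of 391 and 405 bp, against 591 and 612 bp for shared peaks.

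**Figure D1:**
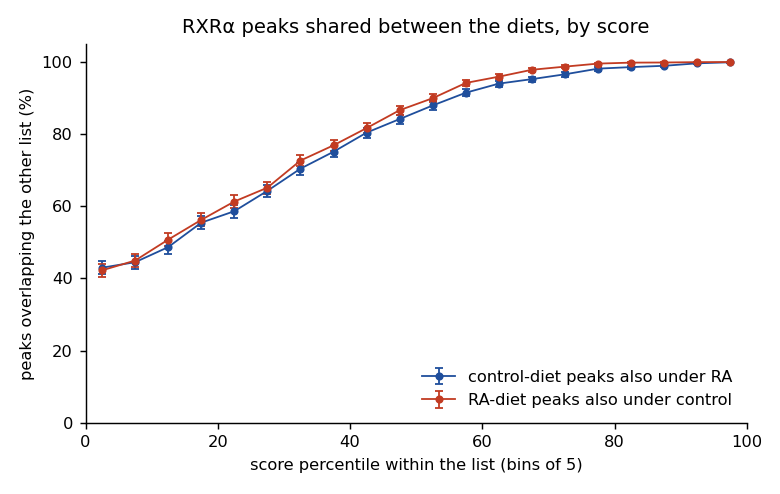
Percentage of RXRα peaks that overlap a peak of the other diet (y axis) in bins of 5 score percentiles within each list (x axis); blue, control list; red, RA list; bars, Wilson 95% intervals. Sharing climbs from 43.0% and 42.3% in the lowest bin to 99.9% and 100% in the highest.

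The share of peaks kept climbed with the score in both lists. In the lowest 5% by score, 43.0% of control peaks and 42.3% of RA peaks were shared, and in the highest 5% the shares were 99.9% and 100%. In every bin above the lowest, the RA list had the higher share, for example 97.9% (97.3 to 98.3) against 95.3% (94.4 to 96.0) between percentiles 65 and 70. In all, 1000 lost peaks and 615 gained peaks had a score of at least 150. These were 3.45% (3.24 to 3.66) of control peaks and 2.13% (1.97 to 2.30) of RA peaks in that score class. The highest lost peak had a score of 660 and the highest gained peak one of 534.

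The nearest peak of the other diet lay a median of 6.09 kb from a lost peak and 6.11 kb from a gained peak, and 37.6% and 37.7% had none within 10 kb. A partner within 100 bp that did not overlap was found for 279 lost and 245 gained peaks, and one within 1 kb for 2245 (17.7%) and 1970 (17.1%). By chromosome, the lost share ran from 18.5% on chromosome 4 to 24.7% on the X chromosome (22.4 to 27.3), and the gained share from 18.1% on chromosome 8 to 24.5% on the X chromosome (22.2 to 27.04).

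Compared with the RARs, RXRα kept a similar share of its sites seen from either diet. For RARα, 15.4% (15.0 to 15.8) of control peaks were lost and 30.9% (30.5 to 31.3) of RA peaks gained, and for RARβ 22.2% (21.6 to 22.9) were lost and 61.1% (60.5 to 61.6) gained. The RARα and RARβ lists under RA held 1.25 and 1.97 times as many peaks as their control lists, against 0.975 times for RXRα, and the part of list length in these shares was not tested.

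Lost peaks lay farther from gene starts than gained or shared peaks. Within 1 kb of the outermost start of a protein-coding gene lay 7.49% (7.04 to 7.96) of lost peaks, 11.5% (10.9 to 12.1) of gained peaks, and 15.6% and 15.5% of the shared peaks of the control and RA lists. Within 10 kb the shares were 27.6% (26.8 to 28.4) for lost, 30.3% (29.5 to 31.2) for gained, and 35.2% and 35.1% for shared peaks. At scores of 150 or more, 5.90% of the lost ones lay within 1 kb, against 13.2% of gained peaks and 13.4% and 15.1% of shared peaks. Seen from the position, the lost share was 11.2% (10.5 to 11.8) for control peaks up to 1 kb from a start, against 23.8% (22.98 to 24.6) of those more than 100 kb away. For gained peaks the corresponding shares were 15.0% (14.3 to 15.8) and 21.2% (20.4 to 21.9). The share inside a gene was close in all classes, at 55.1% of lost and 53.4% of gained peaks against 54.2% and 54.6% of shared ones.

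The highest-scoring gained peaks lay at single, mostly distal sites. The first, with a score of 534, lay inside Dysf, which encodes the membrane repair protein dysferlin, 148 kb after its start. The second lay inside Zeb1, a zinc finger repressor, with a score of 493. The third was at the Ass1 promoter shown above, between 31468722 and 31470731 on chromosome 2, with a score of 485 at percentile 89.0. It was the only one of the 12 highest gained peaks within 10 kb of a start. The others were nearest to Chac1 (419, a glutathione-degrading enzyme), Utp6 (411), Tecr (405, a reductase of fatty acid elongation), Ppm1a (398), Ppara (388), Mreg (371), Gli2 (369, a Hedgehog factor), Dusp7 (334) and Zfp217 (333). Ppara encodes PPARα itself, the fatty acid sensor that pairs with RXRα, and its gained peak lay 17.3 kb before the start.

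The 12 highest lost peaks were all more than 10 kb from a start, between 12.5 and 691 kb. The first had a score of 660 and lay inside Fhit, 411 kb after its start, on chromosome 14 between 10749978 and 10751423. It was followed by peaks nearest to Bach1 (657, a repressor of heme oxygenase), Azin1 (641), Pcsk1 (614), Etnk1 (600, inside Sox5), Cdc7 (590, inside Tgfbr3) and Cyp4a14 (587). The remaining 5 were nearest to Zfp648 (534), Atp2b1 (530), Kl (514), Bbs10 (502) and Pyurf (494, inside Herc6). The peak near Cyp4a14, a fatty acid hydroxylase and a classical PPARα target, lay 12.5 kb after the start, whereas the peak at −1.53 kb, with negative positions before the start, was kept, with scores of 754 under the control diet and 663 under RA. None of these single sites has a replicate.

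**Figure D2:**
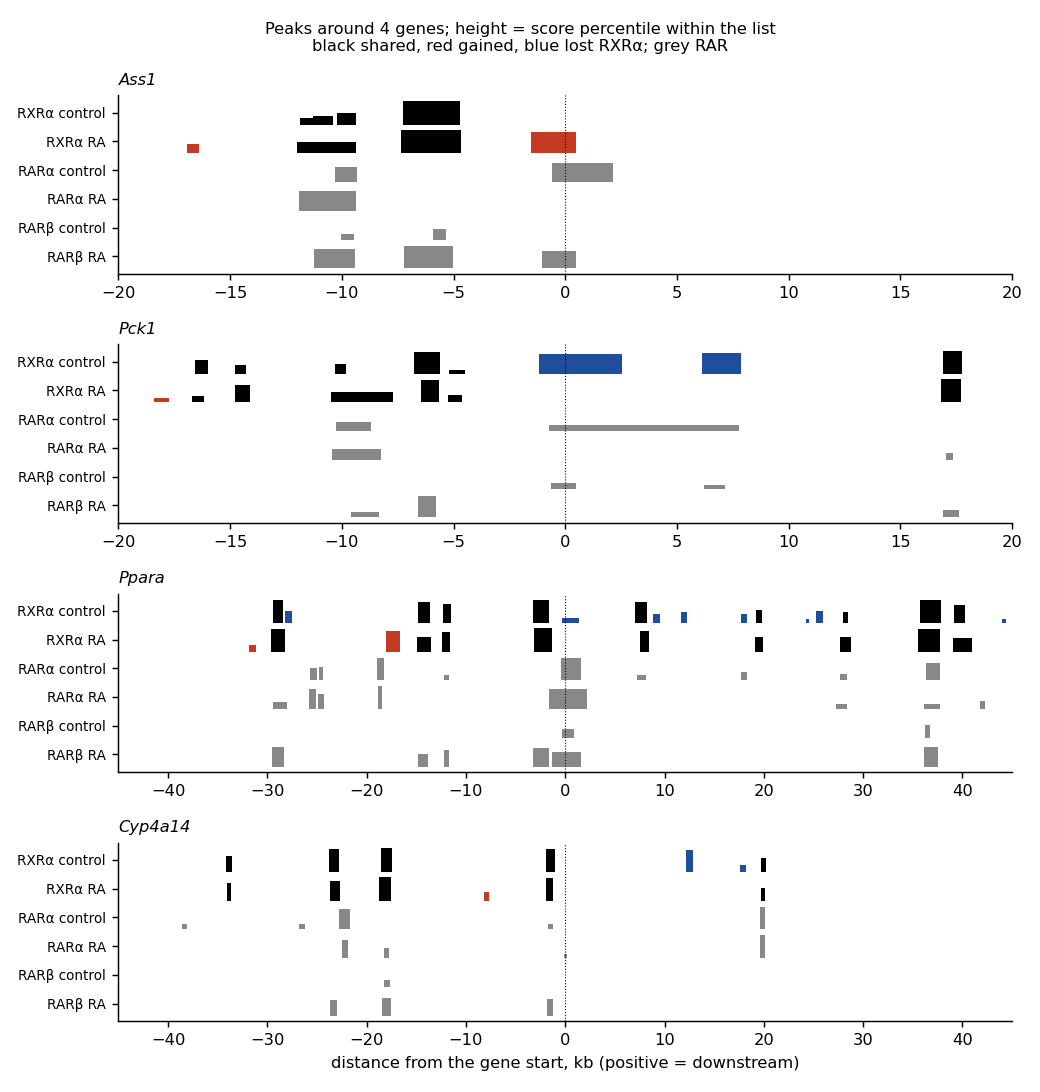
RXRα, RARα and RARβ peaks of each diet around Ass1, Pck1, Ppara and Cyp4a14, by distance from the gene start in kb (x axis, downstream positive); box width is peak width, with a minimum drawn width, and box height is the score percentile within the list. Black boxes are shared, red gained and blue lost RXRα peaks, and grey boxes are RAR peaks; the gained peak at the Ass1 start and the lost peak across the Pck1 start stand out.

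The map of the 4 genes shows how gained and lost peaks sat among kept ones. Around Ass1, each of the 4 control peaks up to 20 kb from the start was kept, and 2 of the 4 RA peaks were gained. The peak at −5.99 kb had scores of 941 and 956, so the gained promoter peak was added beside a site that was strong under both diets. The Ass1 start also carried a RARα peak under the control diet and a RARβ peak under RA.

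Around Pck1, 2 of 8 control peaks were lost, the widest of the 8. One covered the start from 173151921 to 173155598 on chromosome 2, with a score of 322 and a width of 3678 bp, and the other lay 6.99 kb after the start with a score of 377 and a width of 1767 bp. The peak at −6.19 kb under the control diet and −6.07 kb under RA was kept, at percentiles 89.0 and 95.6. A RARα and a RARβ control peak overlapped the lost promoter peak, and no RAR peak under RA did.

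Around Ppara, 8 of the 17 control peaks within 45 kb were lost and 2 of the 11 RA peaks were gained. The site at −2.45 kb stayed at the top of both lists, with scores of 1018 and 1134. A weak peak at the Ppara start, with a score of 56.5, was lost. Around Cyp4a14, 2 of 7 control peaks were lost and 1 of 6 RA peaks was gained.

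RARβ and RARα peaks were read at the same sites. At the 12 highest gained RXRα peaks, 9 overlapped a RARβ peak under RA and 0 a RARβ control peak, while 1 overlapped a RARα control peak and another 1 a RARα peak under RA. At the 12 highest lost peaks the picture was another: 7 overlapped a RARα control peak, 0 a RARα peak under RA, and 1 (near Bbs10) a RARβ peak of both diets. Among all gained peaks with scores of at least 150, 34.8% overlapped a RARβ peak under RA, against 69.0% of such shared RA peaks. Among lost peaks with these scores, 16.8% overlapped a RARα control peak, against 48.5% of such shared control peaks. The RAR lists are separate libraries, but the livers and the input library behind them may be common to the receptors.

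**Figure D3:**
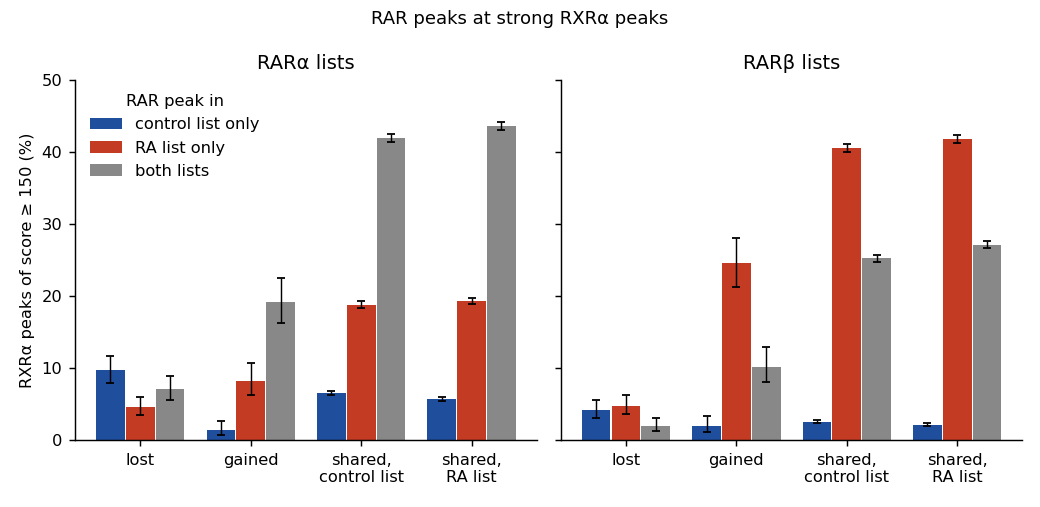
Percentage of RXRα peaks with a score of at least 150 (y axis) that overlap a RARα (left) or RARβ (right) peak found in the control list only (blue), the RA list only (red) or both (grey), for lost, gained and shared RXRα peaks; bars, Wilson 95% intervals. RARα peaks of the control list only are at 9.70% of lost and 1.46% of gained peaks, and RARβ peaks of the RA list only are at 4.80% and 24.6%.

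The contrast was also seen in unshared peaks with scores of 150 or more. There, a RARα peak of the control list only lay at 9.70% (8.02 to 11.7, 97 of 1000) of lost and 1.46% (0.772 to 2.76, 9 of 615) of gained RXRα peaks. A RARα peak of the RA list only lay at 4.60% (3.47 to 6.08) of lost and 8.29% (6.36 to 10.7) of gained peaks. RARα peaks of both lists were at 7.10% of lost and 19.2% of gained peaks, more often at gained peaks than those of either single list. Over peaks of all scores the contrast was smaller: RARα peaks of the control list only and of the RA list only were at 3.804% (3.48 to 4.15) and 3.98% (3.65 to 4.33) of lost peaks, with no difference beyond counting error, and at 2.68% and 5.41% of gained peaks. For RARβ at scores of 150 or more, peaks of the RA list only lay at 4.80% (3.64 to 6.31) of lost and 24.6% (21.3 to 28.1) of gained peaks, and peaks of the control list only at 4.20% (3.12 to 5.63) and 1.95% (1.12 to 3.38). Shared peaks had more calls of the RA list only than gained peaks, at 40.6% and 41.8% for RARβ and 18.8% and 19.3% for RARα in the control and RA lists. Over all scores, RARβ peaks of the RA list only were at 5.73% of lost and 9.99% of gained peaks. The RARβ list under RA was 1.97 times as long as its control list, and the part of that length in the RA-only shares was not tested.

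Most unshared RXRα peaks nevertheless lay apart from the RARs. Among peaks of all scores, 20.04% (19.4 to 20.8) of lost peaks overlapped a RARα or RARβ control peak, and 30.7% (29.8 to 31.5) of gained peaks overlapped a RARα or RARβ peak under RA. For shared peaks the same shares were 46.1% in the control list and 64.8% in the RA list. No RAR peak of either diet was found at 73.9% (71.1 to 76.5) of lost and 54.5% (50.5 to 58.4) of gained peaks scoring 150 or more, against 20.03% and 18.1% of the shared ones of the control and RA lists.

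The sites kept under both diets were compared by rank. The shared peaks formed 47217 regions, of which 45329 (96.0%) joined 1 peak of each diet. Between such pairs the midpoints lay a median of 56 bp apart, and the peak under RA had a median of 1.04 times the control width. Spearman's rho between the score percentiles was 0.783 over the 47217 regions, given as a description of 1 pair of libraries. The median absolute difference was 9.98 percentile points, its 90th percentile was 32.4, and 8360 regions (17.7%) were more than 25 points apart. Of the 6096 regions in the highest 10% under the control diet, 72.6% were also in the highest 10% under RA.

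**Figure D4:**
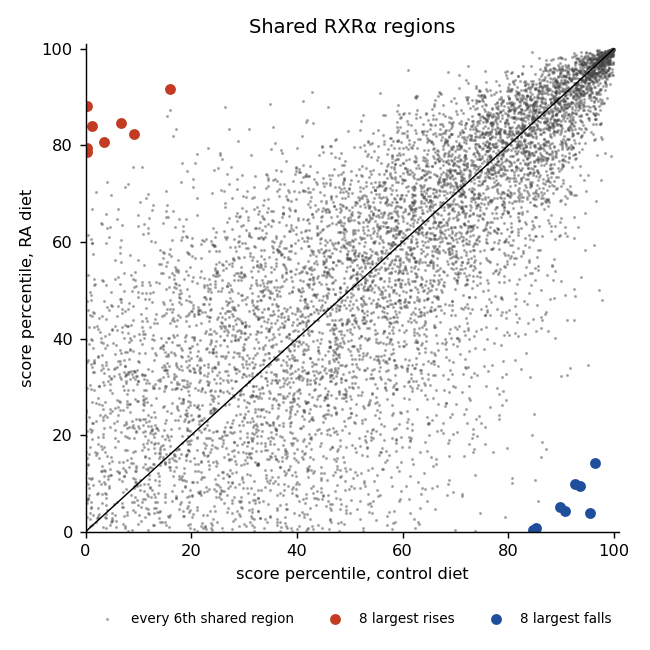
Score percentile of shared RXRα regions within the control list (x axis) and the RA list (y axis), every 6th region in genome order as grey points; red, the 8 regions most above the line (largest rises); blue, the 8 most below it (largest falls); line, equal percentile. Points narrow to the line at the top, and the coloured regions lie in opposite corners.

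The 10 highest shared regions, ranked by the lower of their 2 scores, had scores from 2831 to 3179 under RA. They were nearest to Fcna, Col19a1, Gm2244, Arid1b, Lrrc4c, Rpusd4, Palb2, Prr16, Rab10 and Galc. All 10 were also in all 4 RAR lists, 6 lay more than 100 kb from any protein-coding start, and 5 had the same score of 3100 under both diets. The value 3100 is a tie that recurs across the lists. It was also the highest score of the RARα control list and of both RARβ lists, so the equal scores cannot be read as equal signal. Fcna, a macrophage lectin gene, was the only one of the 10 with a start within 10 kb. The input library was not analysed here, so signal at these regions without an antibody was not tested.

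Large moves between the diets were rare. Over all shared regions, 356 (0.754%) were more than 50 percentile points higher under RA and 553 (1.17%) more than 50 points lower. Of the 8 regions with the largest upward difference, 7 were nearest to Rpl37a (percentile 0.321 to 88.2), Pax1 (1.31 to 84.0), Tmem205 (0.288 to 79.5), Tmem9 (0.321 to 78.6), Gm29975 (3.52 to 80.7, inside Trio), Dhrs3 (15.9 to 91.6) and Irs2 (9.16 to 82.3). Dhrs3 encodes a retinaldehyde reductase that is a known RA-responsive gene. Its region lay inside the neighbouring Vps13d, 112 kb after the Dhrs3 start, and the scores were 67.5 and 551. Irs2, an insulin receptor substrate, had its region 34.1 kb before the start.

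The 8 regions with the largest downward difference were nearest to St6gal1 (percentile 95.4 to 3.84), Gadd45g (90.7 to 4.22), Zhx3 (89.8 to 5.03), Tent4a (85.2 to 0.808), Satb1 (84.7 to 0.395), Il1r1 (93.6 to 9.41), Plpp3 (92.6 to 9.88) and Nek1 (96.5 to 14.2). St6gal1 encodes a sialyltransferase of hepatocyte glycoproteins, and its region, 102 kb after the start and inside the gene, went from a score of 677 to 54.4. Of the 8 upward regions, 6 overlapped a RARα peak under RA and 5 a RARβ peak under RA. Of the 8 downward regions, 6 overlapped a RARα control peak and 1 a RARα peak under RA. Over all shared peaks of the RA list, 51.7% overlapped a RARα and 52.5% a RARβ peak under RA, and 42.1% a RARα control peak. With 8 regions in each group, picked by their difference, these counts are a description only.

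**Figure D5:**
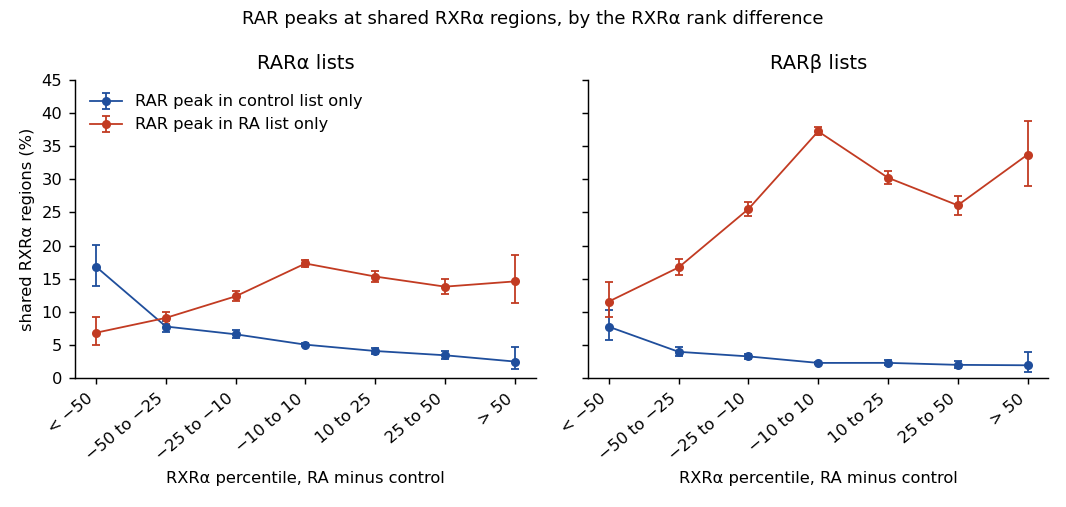
Percentage of shared RXRα regions (y axis) that overlap a RARα (left) or RARβ (right) peak found only in the control list (blue) or only in the RA list (red), by the RXRα percentile difference, RA minus control (x axis); bars, Wilson 95% intervals. RARα peaks of the control list only go from 16.8% at the lowest differences to 2.53% at the highest.

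RAR peaks of the control list only became rarer along the range of differences. A RARα peak of the control list only was at 16.8% (13.9 to 20.2) of the regions more than 50 points lower under RA, at 5.08% (4.80 to 5.36) of those within 10 points and at 2.53% (1.34 to 4.73) of those more than 50 points higher. For RARβ the same shares were 7.78% (5.82 to 10.3), 2.32% and 1.97% (0.956 to 4.002). Peaks of the RA list only did not run evenly with the difference. A RARα peak of the RA list only was at 6.87% (5.05 to 9.29), 17.3% (16.8 to 17.8) and 14.6% (11.3 to 18.7) of these regions, and a RARβ one at 11.6% (9.17 to 14.5), 37.2% (36.6 to 37.8) and 33.7% (29.0 to 38.8). The regions within 10 points had the higher median rank, at percentile 73.4 under the control diet, against 71.2 for those more than 50 points lower and 9.31 for those more than 50 points higher, and the part of that strength in the RAR shares was not tested.

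Regions at gene starts ranked slightly higher under RA. Among the 7256 shared regions within 1 kb of a start, 57.0% (55.9 to 58.1) had the higher percentile under RA, and the median difference was 2.12 points. Between 1 and 10 kb it was 47.7% (46.7 to 48.7) with a median of −0.511, and beyond 100 kb 49.7% (48.6 to 50.8) with a median of −0.0336. Of the regions within 1 kb, 89.9% overlapped a RARα control peak and 90.2% a RARα peak under RA, and for RARβ the shares were 68.8% and 86.03%.

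At the level of genes, the RXRα lists differed little. A gene counted as bound if the middle of any peak was at most 10 kb from its outermost start, which held for 13205 of 21532 protein-coding genes (61.3%) under the control diet and 13293 (61.7%) under RA. Of all genes, 12404 (57.6%) were bound under both, 801 (3.72%) under the control diet only and 889 (4.13%) under RA only. Gained peaks mostly joined genes that already had a peak: 3911 genes (18.2%) had a gained peak within 10 kb, and 77.4% of them were bound under the control diet too. Likewise 3846 genes (17.9%) had a lost peak, and 79.3% of these were still bound under RA. Peaks at genes of one diet were weak, with a median percentile of 21.0 for the control-only and 23.03 for the RA-only genes, against 65.5 and 66.6 for genes bound under both.

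Counts of genes were less even close to the start and with a score limit. With a limit of 1 kb, 1171 of the 21532 genes were bound under RA only and 791 under the control diet only. With both lists limited to scores of at least 100, the numbers were 1364 and 888. Scores are not comparable between libraries, and a gene whose peak fell below this limit counted as unbound. Peaks of these scores, set against the whole other list, ran the other way: 3017 control peaks were lost (7.61%) and 2477 RA peaks gained (6.31%). Genes with RA-only peaks at the highest percentiles included Asf1a, a histone chaperone, whose gained peak had a score of 263 and lay at −0.18 kb. They also included Stra8, an RA-induced gene of germ cells, at 258, the neighbours Sdhaf2 and Cpsf7 on a single peak of 253, and Laptm4a at 233. Control-only genes at the highest percentiles included Hcrtr1 at 412, Sh2b2 at 375 with its peak 0.461 kb after the start, Moxd1 at 348 and Sfrp1, a Wnt inhibitor, at 282. These were chosen by rank after their values were seen.

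Gene lists were read next: 20 lists with 307 genes, which hold groups that RXRα dimers are known to act on, other liver genes, markers of other cell types and genes of nerve, sense organs and muscle. Of these genes, 254 had a control peak and 253 an RA peak, 7 were bound under the control diet only (2.28%, against 3.72% of all genes) and 6 under RA only (1.95%, against 4.13%). A lost peak lay near 27.04% and a gained peak near 24.8% of them, against 17.9% and 18.2% of all genes. The listed genes were also bound more often, since only 61.3% of all genes had a control peak. The part of that in these shares was not tested. The best peaks within 10 kb were higher in percentile under RA for 128 of the 247 genes bound under both diets (51.8%), close to the 52.6% of all such genes. Peak lists carry no expression, so the cell types behind these sites can be read only loosely. All 10 hepatocyte markers were bound under both diets, among them Alb with scores of 536 and 412. Of 47 further markers of Kupffer, stellate, endothelial, bile duct and lymphoid cells, 20 had a control peak and 21 an RA peak. These shares were below those of all genes, at 61.3% and 61.7%. Of the 12 genes of nerve, sense organs and muscle, 4 were bound under each diet.

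All 30 PPARα targets were bound under both diets, against 57.6% of all genes. Pdk4, which restrains pyruvate oxidation, went from percentile 93.3 under the control diet to 99.2 under RA. In the other direction, Acadvl went from 93.3 to 82.2 and Plin2, a lipid droplet coat protein, from 92.6 to 84.2. Of the 30 genes, 17 were higher and 13 lower under RA, with a median difference of 0.772 points against 0.505 for all genes. A lost peak lay near 8 of them (26.7%) and a gained peak near 7 (23.3%), against 17.9% and 18.2% of all genes. By peaks, 14 of 92 control peaks were lost (15.2%) and 8 of 87 RA peaks gained (9.20%). Among all peaks at any distance from a start, these shares were 20.7% and 19.3%. Fabp1, the liver fatty acid-binding protein, had 6 control peaks and 2 RA peaks within 10 kb, and 4 of its control peaks were lost.

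All 18 LXR targets had a control peak and 16 had an RA peak. Abcg1, a cholesterol exporter, lost its only peak, with a score of 187 at 1.19 kb after the start, and Lpl, lipoprotein lipase, lost one with a score of 84.8. Of the 16 bound under both, 11 were higher and 5 lower under RA, with a median difference of 1.403 points. Among all genes bound under both diets, 52.6% were higher, with a median difference of 0.505 points. The higher ones included Lpcat3, a phospholipid acyltransferase, from percentile 91.5 to 97.2, Mlxipl, which encodes the carbohydrate-response factor ChREBP, from 75.1 to 90.5, and Apoe from 93.3 to 97.6.

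FXR and PXR/CAR targets were bound in equal numbers under both diets. Of 20 FXR targets, 19 were bound under each diet, with Abcb11, the bile salt export pump, at scores of 1640 and 1343 and Slc51b at 1095 and 899. Nr0b2, which encodes the repressor SHP, had its best peak under RA at −0.193 kb with a score of 1164, and its best control peak at another site, 9.99 kb after the start, with a score of 793. All 18 PXR and CAR targets were bound under each diet, with 9 higher and 9 lower.

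RAR targets and retinoid handling genes had 1 gene each that was bound under RA only. Of 20 RAR targets, 13 had a control peak and 14 an RA peak, the addition being Stra8 with its gained peak 1.85 kb after the start. Of 29 retinoid handling genes, 22 and 23 were bound, the addition being Bco1 with the promoter peak described above, at a score of 143 and percentile 49.6. Cyp26a1, the main RA-degrading enzyme, held its place near the top of both lists with scores of 1963 and 1510, and Cyp26b1 had 1 control peak and 3 RA peaks, of which 2 were gained. The promoter peak of Dhrs3 went from percentile 73.9 to 83.7, while Rdh11, a retinol dehydrogenase, went from 41.98 to 12.1. Rarb, Stra6, Crabp2 and Lrat had no RXRα peak within 10 kb of the outermost start under either diet.

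Genes of the nuclear receptors that pair with RXR were mostly higher in rank under RA. Of 19 such genes, 15 had a control peak and 14 an RA peak, and of the 14 bound under both, 12 were higher and 2 lower, with a median difference of 2.49 points. Of all genes bound under both diets, 52.6% were higher under RA, with a median difference of 0.505 points. Rxra itself went from percentile 58.8 to 71.2, Rara from 53.5 to 67.7, Thrb, a thyroid hormone receptor, from 48.4 to 60.3, and Nr1h4, which encodes FXR, from 83.6 to 88.7. For Rxra, Rara and Thrb, and for Thra, which was also higher, the best peak of each diet was at another site, so these are not rises of a single site. The 2 lower genes were Rxrb, from 89.4 to 86.7, and Nr1h2, from 58.3 to 42.3, again at another site. Pparg lost its only peak, a weak one with a score of 64.7 at −9.37 kb.

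Cholesterol and bile acid genes had a lost share near that of the whole list and a gained share below it. The low gained share was not particular to them. It was 7.5% for LXR targets, 9.62% for fatty acid and triglyceride synthesis and 6% for hepatocyte transcription factors. RAR targets (25.7%), endothelial (35.3%) and lymphocyte (20%) markers and the nerve, sense organ and muscle genes (33.3%) were above the whole list. These counts of peaks are small, and no interval was computed for them. Their peaks all lay within 10 kb of a start, unlike those of the whole list. Of all control peaks, 11.2% up to 1 kb and 21.2% between 1 and 10 kb from a start were lost. Of all RA peaks at these distances, 15.0% and 18.7% were gained. The part of position in the shares of these genes was not tested. Of 24 cholesterol synthesis and uptake genes, 22 had a control peak and 23 an RA peak, with 13 of 58 control peaks lost (22.4%, against 20.7% of all) and 6 of 50 RA peaks gained (12%, against 19.3%). Cyp51, the lanosterol demethylase, had a single peak at its start that went from percentile 58.4 to 15.0, and Idi1, the isopentenyl diphosphate isomerase, lost its promoter peak of 122 and had another, gained, at −5.74 kb with a score of 69.7. Pmvk was bound under RA only, with a score of 90.9, and Insig1, which holds back sterol synthesis, went from 46.2 to 71.1. All 14 bile acid synthesis genes were bound under both diets, with 10 of 44 control peaks lost (22.7%) and 5 of 41 RA peaks gained (12.2%). Cyp7a1, the rate-limiting enzyme, stayed at percentile 95.7 under each diet, whereas Cyp8b1, which makes cholic acid, went from 91.7 to 75.9 and Cyp39a1 from 89.0 to 75.1.

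All 20 genes of fatty acid and triglyceride synthesis were bound under both diets, and 14 of 15 genes of glucose metabolism. Me1, the NADPH-making malic enzyme, had its promoter peak at percentile 47.6 under the control diet and 85.5 under RA. Fasn and Scd1, fatty acid synthase and the main hepatic desaturase, went from 97.0 to 98.9 and from 97.4 to 99.1, while Gpam, the first acyltransferase of triglyceride synthesis, went from 94.7 to 77.5. In glucose metabolism, Slc2a2, the hepatic glucose transporter, went from 94.7 to 99.04, and G6pc, the phosphatase of the last step of glucose release, from 98.1 at its start to 85.9 at a site of −5.56 kb. The best Pck1 peak was the upstream one, higher under RA, beside the lost promoter peak.

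Among hepatocyte transcription factors, 19 of 19 genes were bound under both diets. Hnf4a, a master regulator of hepatocyte identity, had a promoter peak that went from percentile 54.9 to 14.3, and Foxa1, a pioneer factor, had a peak at 4.36 kb that went from 50.7 to 79.5. Of the 19 clock genes, Arntl and Rora lost their only peaks, both weak with scores of 65.0 and 80.1, and Cry2, a clock repressor, went from 64.1 to 26.99. Over all lists, 5 of the 247 listed genes (2.02%) were over 25 points higher and 11 (4.45%) over 25 points lower, against 861 (6.94%) and 630 (5.08%) of the 12404 genes bound under both diets. A best peak near the top of the control list has no room to rise by 25 points. The median control percentile was 93.0 for PPARα and 94.2 for FXR targets, and 59.4 for cholesterol and 57.8 for RAR target genes. Among all genes bound under both diets it was 65.5. The part of starting rank in these shares was not tested.

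Housekeeping groups and the genes of nerve, sense organs and muscle were read for comparison, without expression values. Of 97 genes named Rpl or Rps plus a number, mostly cytosolic ribosomal proteins with a few kinases among them, 86 had a control peak and 87 an RA peak, with Rpl39 among those under the control diet only and Rps27, Rpl32 and Rpl36a under RA only. Of 49 Nduf genes of respiratory complex I, 47 and 48 were bound. Of 12 neuronal, sensory and muscle genes, 4 were bound under each diet, with Snap25 lost and Myh6 gained, with scores of 91.5 and 80.8. Among endothelial markers, Cdh5 was bound under the control diet only and Pecam1 and Tek under RA only, with scores of 109, 76.5 and 66.1.

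Of the 9 genes taken from the study, 9 had a control peak and 8 an RA peak, and Cyp51 among them is given above. Ptdss1, a phosphatidylserine synthase, lost its only peak, which lay 0.43 kb after the start with a score of 142. Apoa4, an apolipoprotein of chylomicrons, went from percentile 74.2 to 88.6, Abca1, the cholesterol efflux pump, from 96.4 to 93.2, and Cyp7b1, an oxysterol hydroxylase, from 96.3 to 90.4. Abhd5, Aldh3a2 and Elovl1 differed by less than 3 points, for Abhd5 between different sites. Cbr1 lost 2 of its 4 control peaks and had its best peak at −3.99 kb and percentile 77.6 under the control diet, and at another site, 3.12 kb, and percentile 81.04 under RA.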

How the data were processed

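ChIP-seq libraries of RXRα, RARα and RARβ from mouse liver (35 bp single reads) were aligned by the authors to mm10 with Bowtie 0.12.7, and peaks were called per library with MACS 1.4.1; the submitters' processing notes also name CASAVA 1.4. The deposited score of a peak is the caller's −10 × log10 p, at least 50 in each list, and was not normalized between libraries. Read totals are not in the lists, so the depth behind each list is unknown. Peaks were used as deposited; the study's own limit of signal over input was not applied.

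Samples were grouped by the receptor and diet in the labels. Peaks of both RXRα lists were intersected at 1 bp, and regions joined by overlaps were scored by the highest percentile of each list. Gene starts were those of RefSeq (GRCm38.p6), with strand for 21532 of 21896 protein-coding genes (17491 from the RefSeq promoter table, 4041 by symbol from GENCODE M1). Wilson 95% intervals were computed. Analyses ran in Python 3.11.15 with pandas 2.3.3, numpy 2.4.6, scipy 1.17.1 and matplotlib 3.10.9; the interval functions gave the expected answers in 7 of 7 checks on simulated peaks.

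Named were the nearest genes of the 12 highest gained and 12 highest lost peaks, the 10 highest shared regions, the 8 largest rises and 8 largest falls in percentile, list genes bound in 1 diet only and 9 genes of the study; other list genes, the sequences and the highest genes of 1 diet were chosen after their values were seen. The members and lists were chosen with earlier results of these data known. Alternatives were other overlaps, score limits, list lengths and distances, and a set of all annotated starts, chosen after seeing the data. The input library was not analysed here. Some genes that the naming rule selects are not reported here.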

Additional observations from a re-analysis of the deposited data

Results flagged for a closer look

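RA livers gave 0.975 RXRα peaks for each control peak, whereas the same ratio was 1.25 for RARα and 1.97 for RARβ. The opposite direction of the RXRα peak count drew attention to it, and with 1 library per group the difference was not tested. Covered bases did not share this direction: RXRα peaks spanned 38.9 Mb in RA livers against 37.8 Mb in controls. For RARα the spans were 24.3 against 24.8 Mb, and for RARβ 22.6 against 8.27 Mb. Of the RXRα peaks, 1219 from RA livers each met 2 or more control peaks, and 914 control peaks met 2 or more from RA livers. The part of such joining in the counts was not tested.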

How the results depend on the processing

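With 1 library per diet, no replicate could be left out, and depth, animal and diet cannot be told apart. No paired analysis was possible because each group holds a single library. The shared share of RA and control peaks was 80.3% and 78.7% with an overlap of 25% of each width, 84.0% and 82.9% when a partner within 1 kb counted, 93.7% and 92.4% when peaks scoring 100 or more were set against the whole other list, and 79.7% and 80.2% at equal list length; with both lists limited to scores of at least 100, it was 80.6% for control peaks. The share of gained and lost peaks within 10 kb of a start was 27.3% and 24.9% when a partner within 1 kb counted as shared, 11.5% and 7.49% within 1 kb, and 32.7% and 30.3% with all annotated starts, an alternative chosen after seeing the data; for lost peaks with scores of at least 100 it was 26.02%. Overlap of gained peaks with a RAR peak under RA was 28.9% with the 1 kb partner and 38.0% for scores of at least 100, and that of lost peaks with a RAR control peak 19.3% with the 25% overlap and 19.03% for scores of at least 100. Genes bound under RA only numbered 1364 with both lists limited to scores of at least 100. Spearman's rho was 0.782 with the 25% overlap, 0.764 for scores of at least 100 and 0.783 for regions with 1 peak of each list. In each alternative run for both, the lost share near starts was below the gained share. Of 37 alternative values, the 24 given here are those outside the counting interval or, for counts, past 1.5 times, and all those of Spearman's rho, which was 0.783 as reported and has no interval here; the cause was not tested.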
